A study of Mus musculus with 6 samples.

Results

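The cone opsin genes Opn1sw and Opn1mw were followed through 6 RNA-seq libraries of mouse cones that had been isolated by fluorescence-activated sorting. They were chosen by name, as the 2 cone opsin genes among the 9720 protein-coding genes of the deposited table; no value enters that rule, although results of these data were known when it was set. The cone Bmal1 knockout libraries (n = 3) came from animals with the genotype HRGPcre;Bmal1f/f;Z/EG, which carry 2 floxed copies of Bmal1. The control libraries (n = 3) came from HRGPcre;Bmal1f/+;Z/EG animals, which carry 1 floxed copy, so that control cones are heterozygous for Bmal1 after recombination although the series text calls them wild type. All animals therefore carried the Cre transgene HRGPcre, in which the promoter of the human red and green opsin gene drives Cre in cones, and the Z/EG reporter, which gives eGFP once Cre has acted. The strain is labelled as C57BL/6 with a mixed background, the age in 2 ways, postnatal day 60 to 80 in one label and 2 to 6 months in another, and the lighting as 12 h of light and 12 h of darkness. No source used here gives the time of day of collection or the number of animals behind a library. The p-values therefore reflect the spread among these libraries alone, part of which may be technical.

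The deposited table gives levels as FPKM, read fragments scaled to transcript length and library size, a scale on which genes can be compared per length. The counts behind it and the sequencing depth are not given, so no counting interval is possible. Bmal1 itself, listed as Arntl, measured 3.37, 2.28 and 3.48 FPKM in knockout libraries and 3.0, 2.60 and 3.27 FPKM in control libraries. This value covers the whole gene and does not check the deletion of part of it. Nr1d1, which encodes the clock repressor REV-ERB alpha and is driven by BMAL1, measured 4.13 ± 1.11 FPKM in knockout and 47.2 ± 8.98 FPKM in control (adjusted p = 0.00013, limma). Of 19 core clock genes listed, 17 were in the table and 16 were tested; Cry1 rose and Nr1d1, Nr1d2 and Per3 fell, and Tef, the most abundant by the mean over all 6 libraries though in neither group alone, measured 19.9 ± 3.06 FPKM in knockout and 40.8 ± 8.78 FPKM in control. Of all 8627 tested genes 0.104% passed, namely 0.0464% that rose and 0.058% that fell. Control 1 stood apart, with a mean correlation of 0.90 to the other control libraries, and it held 21.1 FPKM of the neuronal gene Stmn2 against 0.10 to 0.67 FPKM in every other library. Some of the values that move without it are given beside the results.

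Opsins are the light-absorbing receptors of photoreceptors, and each binds a retinal chromophore. Opn1sw encodes the short-wavelength opsin (S-opsin), which in the mouse absorbs ultraviolet light, and Opn1mw encodes the medium-wavelength opsin (M-opsin), which absorbs green light. Most mouse cones make both pigments, M-opsin prevails in the dorsal retina and S-opsin in the ventral retina, and a minority of cones make S-opsin alone. In mouse cones, thyroid hormone receptor beta is needed for Opn1mw and represses Opn1sw, whereas the nuclear receptors ROR alpha and ROR beta activate Opn1sw.

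Opn1sw (ENSMUSG00000058831.13) occupies bases 29376671 to 29388468 of chromosome 6 in GRCm38, on the minus strand, and Opn1mw (ENSMUSG00000031394.11) bases 74127464 to 74150760 of chromosome X, on the plus strand (GENCODE vM21). The coding sequences of their main transcripts hold 1038 bases in Opn1sw and 1167 bases in Opn1mw. They were identical at 62.5% of 1017 aligned positions, and the longest run of bases that the transcripts share was 17, against reads of 150 bases. The promoters are shown because regulators of both genes were measured in the same libraries. Each sequence runs from 250 bases before the RefSeq transcription start to 50 bases after it, 5′ to 3′ on the strand of the gene (RefSeq, GRCm38.p6, chr6:29380464-29380763 on the minus strand and chrX:74127216-74127515 on the plus strand). Capitals mark matches to the motifs searched.
Opn1sw: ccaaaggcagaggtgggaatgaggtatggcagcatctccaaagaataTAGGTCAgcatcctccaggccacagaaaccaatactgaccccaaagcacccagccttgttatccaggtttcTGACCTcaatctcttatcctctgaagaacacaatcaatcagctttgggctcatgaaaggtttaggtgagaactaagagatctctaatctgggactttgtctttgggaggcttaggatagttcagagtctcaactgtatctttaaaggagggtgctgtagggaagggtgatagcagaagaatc
Opn1mw: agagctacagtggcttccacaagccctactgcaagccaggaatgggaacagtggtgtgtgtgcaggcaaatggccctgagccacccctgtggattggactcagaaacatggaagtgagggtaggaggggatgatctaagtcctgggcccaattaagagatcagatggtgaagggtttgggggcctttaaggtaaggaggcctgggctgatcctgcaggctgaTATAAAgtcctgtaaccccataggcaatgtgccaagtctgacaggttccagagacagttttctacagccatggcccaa

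Motifs were searched on both strands. AGGTCA, the core to which many nuclear receptors bind, was found at 2 places in the Opn1sw promoter, 202 bases upstream on the gene strand and 132 bases upstream on the other strand (printed as its complement TGACCT), and at 0 places in that of Opn1mw. Among all 32851 RefSeq promoters of this length, 16.3% held at least 1 match and 1.81% held 2 or more. The upstream match overlaps a match to TAGGTCA, the core with the preceding T found in ROR and REV-ERB elements, which 2.61% of promoters held. TATAAA stood 28 bases upstream of the Opn1mw start and was held by 13.6% of promoters. The E-box CACGTG bound by BMAL1 and CLOCK (7.15% of promoters), TAATCC bound by CRX and OTX2 (7.06%) and the D-box TTATGTAA (0.938%) were at 0 places in both windows. A match describes the letters of the window and does not show that a factor is bound.

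Opn1sw measured 1774, 1977 and 2091 FPKM in the knockout libraries, against 735, 1005 and 1202 FPKM in the control libraries. All 3 knockout values lay above all 3 control values, with a gap between the lowest knockout and the highest control library. The means were 1947 ± 160 FPKM in knockout and 981 ± 235 FPKM in control (SD, n = 3 each), a 1.99-fold ratio of means. Groups lay apart in this direction for 3.52% of all 8627 tested genes. On the scale of log2(FPKM + 1) the difference, knockout minus control, was 1.01 ± 0.32 (SE) with a 95% interval from 0.32 to 1.71. Over all tested genes it did not pass, at an unadjusted p of 0.0080, where 5.49% of genes were under 0.05, and an adjusted p of 0.65 (limma, Benjamini-Hochberg, threshold 0.05). Without control 1 the log2 difference of Opn1sw was 0.82.

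Opn1mw measured 697, 815 and 722 FPKM in the knockout libraries, against 661, 1471 and 1144 FPKM in the control libraries. The groups overlapped, because control 1 read lower than every knockout library while controls 2 and 3 read higher. Means were 745 ± 62.1 FPKM in knockout and 1092 ± 408 FPKM in control (SD, n = 3 each), a ratio of means of 0.682. The log2 difference was -0.48 ± 0.34 (SE), with a 95% interval from -1.23 to 0.27 and an adjusted p of 0.94 (limma). Without control 1 it was -0.80 and without control 2 it was -0.23. Neither opsin gene passed, against the 0.104% of tested genes that did. The coefficient of variation of Opn1sw was 8.23% in knockout and 23.9% in control libraries, and that of Opn1mw was 8.34% in knockout and 37.3% in control libraries.

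**Figure D1:**
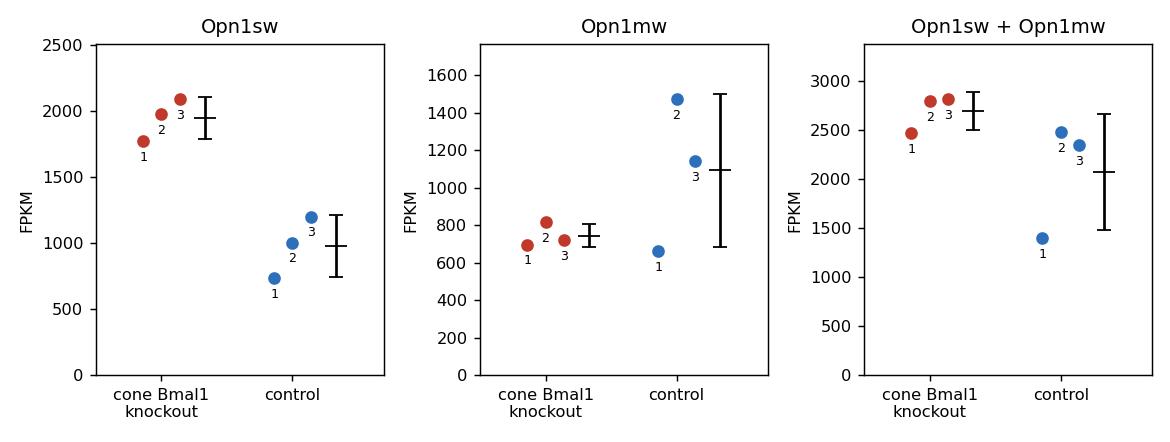
FPKM of Opn1sw, Opn1mw and their sum in each library, cone Bmal1 knockout (red) left of control (blue), with replicate numbers under the points and the group mean ± SD beside them (n = 3 each); each panel starts at 0 and has its own scale. The knockout libraries lie between 1774 and 2091 FPKM for Opn1sw, all above the control libraries, while for Opn1mw and for the sum the groups overlap.

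The balance between the opsins was measured within each library, where a common scaling factor cancels. The FPKM ratio of Opn1sw to Opn1mw was 2.54, 2.43 and 2.90 in knockout libraries, against 1.11, 0.683 and 1.05 in control libraries. S-opsin transcript thus exceeded M-opsin transcript in every knockout library, and in the control libraries the ratio lay on both sides of 1. As a share of the summed opsin FPKM, Opn1sw made up 72.3 ± 1.82% in knockout and 48.2 ± 6.59% in control (SD, n = 3 each). The log2 ratio averaged 1.39 ± 0.13 in knockout and -0.11 ± 0.38 in control, a difference of 1.495. The groups were apart for the ratio and for the share, and the two-sided exact permutation test gave p = 0.10 for each, the smallest that 3 against 3 libraries allow. Entered as one more value in the limma fit over all genes, the log2 ratio difference of 1.495 had an adjusted p of 0.039. In that fit the spread borrowed from other genes was read at the mean of the log2 ratio itself. That mean lies far below the log2(FPKM + 1) of either opsin, so this p does not decide whether the ratio differs. How often a ratio to Opn1mw sets the groups apart was counted for the other 8625 tested genes: 22.8% had a ratio that was higher in every knockout library, and 0.325% had one that was lower. Measured against Opn1sw instead, 81.8% of those genes had a ratio that was lower in every knockout library and 0.0812% one that was higher. The value of the ratio itself depends on the transcript lengths used for FPKM, which the sources do not state. GENCODE lists transcripts of 408 to 2410 bases for Opn1sw and of 530 to 1233 bases for Opn1mw.

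The summed opsin level was 2472, 2792 and 2812 FPKM in knockout libraries, against 1396, 2477 and 2346 FPKM in control libraries. Control 1 stood well below the other libraries, and control 2 read just above knockout 1, so that the groups overlapped. The log2 sum differed by 0.42, knockout minus control (exact permutation p = 0.20, two-sided), and by 0.16 without control 1. As a part of the FPKM sum over the whole table, the opsins held 2.42%, 2.73% and 2.63% in knockout libraries and 1.64%, 2.32% and 1.82% in control libraries. The groups were apart on this measure, as they were in the higher direction for 6.82% of tested genes, and in control 3 the gene model Gm17364 alone held 10.03% of that sum.

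A change in the number of cones or in the RNA of each cone cannot be told apart in such bulk libraries, so the opsins were also set against other cone genes. The geometric mean of 8 cone genes (Arr3, Gnat2, Gnb3, Gngt2, Pde6c, Pde6h, Cnga3 and Cngb3) was 204 ± 18.0 FPKM in knockout and 227 ± 43.5 FPKM in control libraries (SD, n = 3 each). Opn1sw stood at 9.44, 9.82 and 9.35 times this mean in knockout libraries, against 4.14, 4.10 and 4.65 times in control libraries. The replicates of each group lay closer together on this scale than in FPKM, and the groups stayed apart, as they did in the higher direction for 9.68% of tested genes. With cone-scaled values the log2 difference of Opn1sw was 1.15, with an adjusted p of 0.064 (limma). Opn1mw stood at 3.71, 4.05 and 3.23 times the cone mean in knockout libraries and at 3.72, 6.00 and 4.42 times in control libraries, where control 1 fell among the knockout values. Its cone-scaled log2 difference was -0.34 (adjusted p = 0.74, limma). On the same scale the summed opsins stood at 12.6 to 13.9 in knockout libraries and at 7.86 to 10.1 in control libraries.

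**Figure D2:**
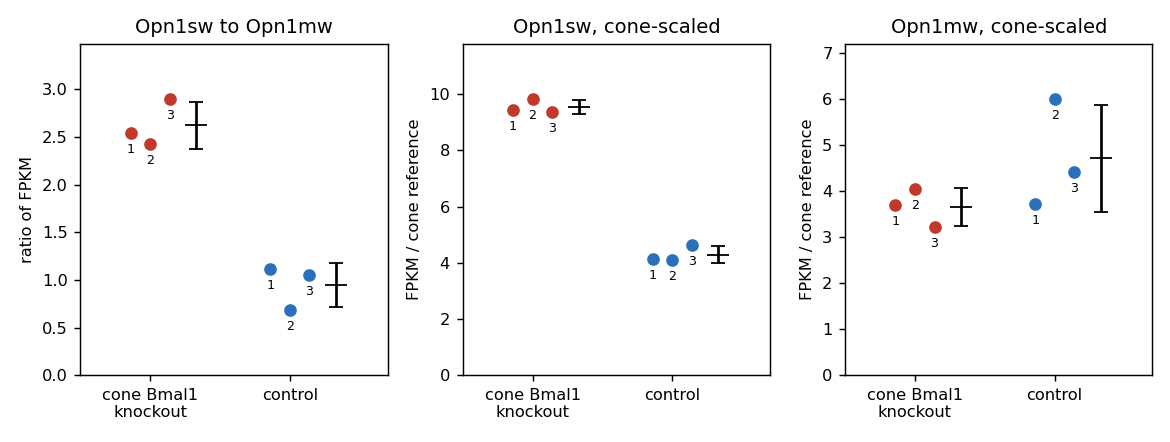
Ratio of Opn1sw to Opn1mw FPKM, and each opsin's FPKM divided by the geometric mean FPKM of 8 cone genes, in each library of the knockout (red, left) and of the control (blue, right), with group mean ± SD (n = 3 each). The ratio runs from 2.43 to 2.90 in knockout and from 0.683 to 1.11 in control; cone-scaled Opn1sw separates the groups and cone-scaled Opn1mw does not.

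Both opsins were among the most abundant transcripts of the table. By mean FPKM, Opn1sw ranked 2nd of 9720 genes in knockout and 7th in control, and Opn1mw ranked 9th in knockout and 5th in control. The only gene above Opn1sw in knockout was the gene model Gm17364, and the 3 highest in control were Gm17364, Gngt2 and Gm20594. In single libraries the rank of Opn1sw was 2 in all 3 knockout libraries and 3 to 6 in control libraries, and that of Opn1mw was 8 to 11 in knockout and 4 to 7 in control. How often ranks lay apart over all genes was not counted. The FPKM of Opn1mw did overlap, and in control 1 it ranked 7th at 661 FPKM, its lowest level in any library. Among the cone opsins and 20 further cone phototransduction genes, Opn1sw came first in knockout, above Gngt2 at 1002 ± 162 FPKM, and their ranges did not overlap. Opn1mw was in position 5 there, next to Arr3, which encodes cone arrestin, at 767 ± 107 FPKM, and their ranges overlapped. In control the order was Gngt2, Opn1mw, Gnat2, Opn1sw and Arr3, where the ranges of neighbours overlapped down to Opn1sw, and that of Opn1sw lay above that of Arr3. Of the 103 genes that averaged 100 FPKM or more, a limit chosen after the values were seen, Opn1sw had the 5th highest log2 difference and Opn1mw the 8th lowest, and the median was 0.06. Calu and Ccdc136, the genes on either side of Opn1sw, were 4th and 6th from the top.

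**Figure D3:**
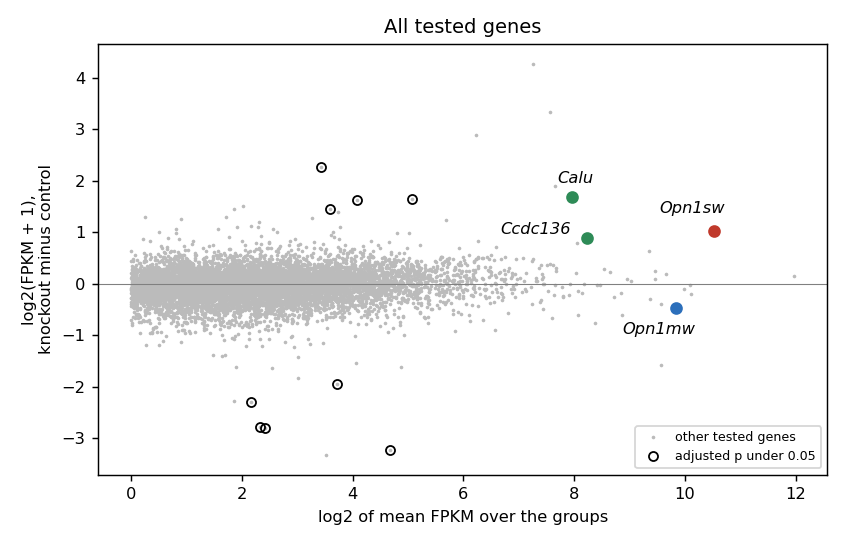
Difference in log2(FPKM + 1), knockout minus control, against the log2 of mean FPKM for the 8627 tested genes (grey; Opn1sw red, Opn1mw blue, Calu and Ccdc136 green), with open circles around the 9 genes with an adjusted p under 0.05 in limma. Opn1sw lies at 1.01 and Opn1mw at -0.48, both near the abundant end, and neither is circled.

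Downstream of the opsins, 20 cone phototransduction genes were measured and 20 were tested. None passed in either direction, their median log2 difference was -0.03 against -0.02 over all tested genes, and 10 were positive and 10 negative. Under scaling by the FPKM sum, by the median ratio, by quantiles or by the 8 cone genes, 9 to 14 were positive. Slc24a2, which encodes the cone sodium, calcium and potassium exchanger, was the 1 gene of the 20 whose groups were apart, where 3.52% of all tested genes were apart in this direction, at 29.4, 36.0 and 28.3 FPKM in knockout libraries and 20.2, 17.7 and 23.8 FPKM in control libraries. Its log2 difference was 0.58 (adjusted p = 0.87, limma). The lowest difference of the list, -0.76, was that of the guanylate cyclase activator gene Guca1a (254 ± 112 FPKM in knockout and 414 ± 94.1 FPKM in control). Pde6h, the inhibitory subunit of the cone phosphodiesterase, measured 212 ± 64.9 FPKM in knockout and 327 ± 109 FPKM in control. The transducin subunit Gngt2 was the most abundant of the list, at 1002 ± 162 FPKM in knockout and 1211 ± 489 FPKM in control (SD, n = 3 each). Opn1sw had a higher log2 difference than each of the 20 genes, whereas that of Opn1mw lay within their range.

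**Figure D4:**
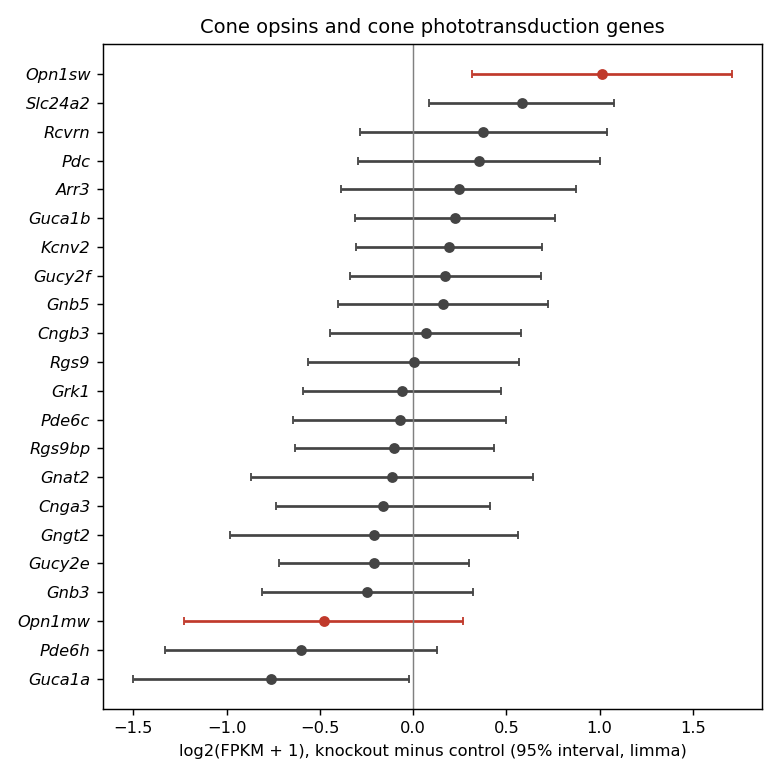
Log2 difference of each cone opsin (red) and of 20 cone phototransduction genes (grey), knockout minus control on the log2(FPKM + 1) scale, with 95% intervals from limma. Opn1sw is at the top at 1.01, Opn1mw is among the lowest at -0.48, and only the intervals of Opn1sw, Slc24a2 and Guca1a leave out 0 before adjustment over all genes.

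Genes known to act on opsin transcription were described next. Of 22 listed, 18 were in the table and 17 were tested, none passed, and the median log2 difference was 0.13, with 11 positive and 6 negative. Under these scalings 12 to 14 were positive, and without control 1 there were 9 of 17. Thrb, which encodes thyroid hormone receptor beta, measured 20.9, 22.3 and 26.3 FPKM in knockout libraries and 15.9, 18.3 and 23.3 FPKM in control libraries, which overlap. Its heterodimer partner Rxrg, known in the mouse to repress Opn1sw, measured 3.62 ± 0.30 FPKM in knockout and 3.88 ± 1.63 FPKM in control. Rora, which encodes ROR alpha, measured 31.8, 31.0 and 29.2 FPKM in knockout libraries and 19.8, 23.0 and 28.5 FPKM in control libraries. The groups of Rora were just apart, as were those of the rod nuclear receptor gene Nr2e3 (7.97 ± 2.22 FPKM in knockout and 6.01 ± 0.54 FPKM in control), and no other gene of the 17 had groups apart, against 3.52% of all tested genes apart in this direction. Rorb, which encodes ROR beta, measured 11.5 ± 1.64 FPKM in knockout and 10.2 ± 2.34 FPKM in control.

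The photoreceptor homeobox gene Crx was the most abundant of these regulators by the mean over all 6 libraries, though below Mef2d in knockout, at 89.7 ± 23.3 FPKM in knockout and 107 ± 24.6 FPKM in control. Its partner Otx2 measured 44.4 ± 4.89 FPKM in knockout and 40.3 ± 9.92 FPKM in control. Neurod1, a basic helix-loop-helix factor that sustains Thrb in mouse cones, measured 61.7 ± 5.48 FPKM in knockout and 51.7 ± 7.71 FPKM in control. Nr2f2, which encodes the nuclear receptor COUP-TFII, had the lowest p of the list, at 1.56 ± 1.02 FPKM in knockout and 2.42 ± 0.27 FPKM in control (log2 difference -0.49, adjusted p = 0.91, limma). The rod factor gene Nrl measured 27.7 ± 6.28 FPKM in knockout and 21.6 ± 6.58 FPKM in control, and Mef2d 102 ± 35.5 FPKM in knockout and 90.1 ± 17.9 FPKM in control. The other regulators tested (Sall3, Nr2f6, Mef2c, Casz1, Pias3 and Samd11) had log2 differences of -0.40 (Nr2f6) to 0.19 (Sall3). Nr2f1, Samd7, Onecut1 and Tbx2 were not analysed here, and Isl2 lay below the filter of a mean of 1 FPKM.

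Genes that carry, convert or read thyroid hormone were listed because the hormone acts on both opsins. Of 19 listed, 13 were in the table, 11 were tested and none passed, with 5 positive and 6 negative and a median log2 difference of -0.02. Thra, which encodes thyroid hormone receptor alpha, was the 1 gene whose groups were apart in the lower direction, as they were for 5.87% of all tested genes. It measured 3.72, 2.96 and 4.42 FPKM in knockout libraries and 5.14, 4.99 and 6.44 FPKM in control libraries (log2 difference -0.48, adjusted p = 0.90, limma). The retinoid receptor gene Rxra measured 2.44 ± 1.02 FPKM in knockout and 4.12 ± 1.66 FPKM in control, and its paralog Rxrb 1.3 ± 0.32 FPKM in knockout and 1.75 ± 0.223 FPKM in control. The corepressor gene Ncor1 was the most abundant of the list, at 74.6 ± 11.4 FPKM in knockout and 62.2 ± 5.92 FPKM in control. The deiodinase genes Dio1, Dio2 and Dio3 were not analysed here.

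Because the opsins are graded from dorsal to ventral retina, genes of dorsal and ventral identity were listed. Only 4 of 18 listed were in the table and 3 were tested, each at low levels. Vax2, a ventral homeobox gene, measured 1.33, 2.16 and 1.69 FPKM in knockout libraries and 0.555, 1.80 and 2.29 FPKM in control libraries. The groups of Vax2 overlapped, and Ephb2, a ventral ephrin receptor gene, overlapped as well at 0.824 to 0.905 FPKM in knockout and 0.536 to 2.44 FPKM in control. Nr2f2, described above among the regulators, was the other tested gene. It was the most abundant of this list by the mean over all 6 libraries, though below Vax2 in knockout. Nr2f2 measured 1.13, 0.827 and 2.72 FPKM in knockout libraries and 2.28, 2.25 and 2.74 FPKM in control libraries, which overlap. The share of dorsal and ventral cones in a library was not tested.

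Opsins need a chromophore, and 11 of 13 genes of its supply and turnover were in the table. None of the 10 tested passed, 5 were positive and 5 negative, and the median was 0.03. Without control 1 there were 3 positive, and under the scalings 7 to 10. The retinol dehydrogenase gene Rdh12 had the lowest p, at 98.5, 82.2 and 65.4 FPKM in knockout libraries and 40.4, 55.8 and 71.6 FPKM in control libraries, where control 3 lies above knockout 3. The retinol dehydrogenase gene Rdh10 measured 1.38 ± 0.166 FPKM in knockout and 1.22 ± 0.518 FPKM in control, and the desaturase gene Degs1 6.58 ± 0.714 FPKM in knockout and 6.21 ± 2.4 FPKM in control. Rbp3, which encodes the retinoid carrier of the space between photoreceptors and pigment epithelium, was the most abundant at 510 ± 27.9 FPKM in knockout and 480 ± 61.5 FPKM in control.

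Opsin protein travels through the connecting cilium to the outer segment, and all 15 genes listed for this transport were tested. None passed, 8 were positive and 7 negative, and the median was 0.00. Without control 1 there were 6 positive, and under the scalings 7 to 12. Rpgr, a ciliary gene mutated in human X-linked retinal degeneration, measured 9.17 ± 2.06 FPKM in knockout and 5.92 ± 1.13 FPKM in control (log2 difference 0.55, adjusted p = 0.90, limma). Cep290, which encodes a protein of the ciliary transition zone, was the 1 gene of the 15 whose groups were apart (higher in 3.52% of all tested genes), at 12.3 to 16.6 FPKM in knockout and 8.74 to 12.0 FPKM in control. The small GTPase gene Arl3 measured 30.4 ± 9.87 FPKM in knockout and 44.4 ± 7.32 FPKM in control, and Rpgrip1, the most abundant gene of the list, 181 ± 16 FPKM in knockout and 167 ± 36.6 FPKM in control.

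Summed over 14 rod marker genes, the level was 2512 to 3587 FPKM in knockout and 2998 to 3672 FPKM in control. This sum is 13.4 to 16.0 times the geometric mean of the 8 cone genes in knockout and 13.6 to 16.9 times in control. A sum is set against a mean there, so the value is not a ratio of rod to cone RNA. Pde6g measured 676 ± 266 FPKM in knockout and 845 ± 113 FPKM in control. It was the most abundant rod marker by the mean over all 6 libraries, though below Sag in knockout. The cone gene Arr3 averaged 767 FPKM in knockout and 646 FPKM in control, so rod transcripts were abundant in these libraries. None of the 14 passed, and the rod level relative to cone genes overlapped between the groups. Of the 14, 9 had a positive and 5 a negative log2 difference, with 10 to 11 positive under the scalings and 6 without control 1. The groups of 2, Nr2e3 and Cnga1, were apart in the higher direction, as were those of 3.52% of all tested genes. Rrh, which encodes peropsin, measured 0.581 to 1.07 FPKM in knockout and 0.216 to 1.02 FPKM in control and was not tested.

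For markers of other retinal cells, the summed level of each list lay below the rod marker sum in every library, though single genes were well detected. The Müller glia list had 6 of 10 genes in the table, without Slc1a3, Sox9, Aqp4 and Kcnj10, and summed to 98.9 to 110 FPKM in knockout and 89.8 to 117 FPKM in control. Bipolar cell markers, with 7 of 9 in the table, summed to 55.4 to 59.6 FPKM in knockout and 48.7 to 71.4 FPKM in control. The amacrine list (2 of 10) summed to 5.01 to 8.15 FPKM in knockout and 8.98 to 11.2 FPKM in control, and the ganglion cell list (3 of 9) to 2.07 to 2.32 FPKM in knockout and 2.63 to 23.9 FPKM in control. Both of these sums were lower in every knockout library than in every control library, as were 5.87% of all tested genes taken singly. So were the single genes Apoe (2.32 ± 0.62 FPKM in knockout and 4.06 ± 0.50 FPKM in control) and Clu (18.6 ± 2.97 FPKM in knockout and 26.0 ± 1.17 FPKM in control), which make 2 of the 6 Müller glia genes tested. Of those 6 genes, 3 had a positive and 3 a negative log2 difference. Car2, the most abundant Müller glia gene by the mean over all 6 libraries, overlapped. It measured 60.8 ± 6.67 FPKM in knockout and 54.3 ± 10.6 FPKM in control. The bipolar gene Gng13 was lower in every knockout library (1.79 ± 0.54 FPKM in knockout and 4.28 ± 1.79 FPKM in control). It was the 1 such gene of the 6 bipolar genes tested, of which 2 were positive and 4 negative. The part of these markers in the opsin values was not tested. None of the horizontal cell and pigment epithelium markers was in the table. The microglia gene C1qb read 0.10 to 0.275 FPKM in knockout and 0.10 to 1.47 FPKM in control, and the erythroid gene Alas2 3.06 to 5.29 FPKM in knockout and 1.48 to 2.93 FPKM in control. No marker gene on these lists passed in limma.

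Around Opn1sw, both neighbouring genes were also higher in every knockout library, as were 3.52% of all tested genes. Calu (ENSMUSG00000029767.16, chromosome 6 from 29348069 to 29377110, plus strand) encodes calumenin, a calcium-binding protein of the secretory pathway. It measured 424, 432 and 282 FPKM in knockout libraries, against 91.6, 109 and 154 FPKM in control libraries. The log2 difference was 1.68 ± 0.30 (SE) with an adjusted p of 0.083 (limma), so that Calu did not pass. It did pass under 6 of 17 other settings, among them scaling by the FPKM sum (adjusted p = 0.027) and by the 8 cone genes (0.016), and over all 17 its adjusted p ran from 0.0092 to 0.49 (limma). Its 3' end shares 397 exon bases with Opn1sw on the opposite strand, which is 15.5% of the exon bases annotated for Opn1sw and 8.51% of those for Calu. None of the shared bases is in the coding sequence of the main Opn1sw transcript, 3 of 9 Calu transcripts reach Opn1sw exons, and 1 of 9 does so by more than 10 bases. Whether the counting used strand is not given, and without strand, reads of the shared stretch cannot be told apart. Calu stood at 23.9%, 21.8% and 13.5% of the Opn1sw level in knockout libraries and at 12.5%, 10.9% and 12.8% in control libraries.

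Ccdc136 (ENSMUSG00000029769.16, chromosome 6 from 29396309 to 29426994, plus strand) encodes a coiled-coil protein. It begins after a gap of 7840 bases beyond the end of Opn1sw annotated by GENCODE. The RefSeq start used for the promoter lies inside the GENCODE bounds of Opn1sw, so the gap from that start is longer. Ccdc136 shares no exon with Opn1sw. It measured 524, 328 and 322 FPKM in knockout libraries, against 154, 222 and 255 FPKM in control libraries. The groups were apart, and the log2 difference was 0.88 ± 0.31 (SE) with an adjusted p of 0.76 (limma). Of these 3 adjacent genes, Opn1sw was by far the most abundant, and the difference was highest for Calu.

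**Figure D5:**
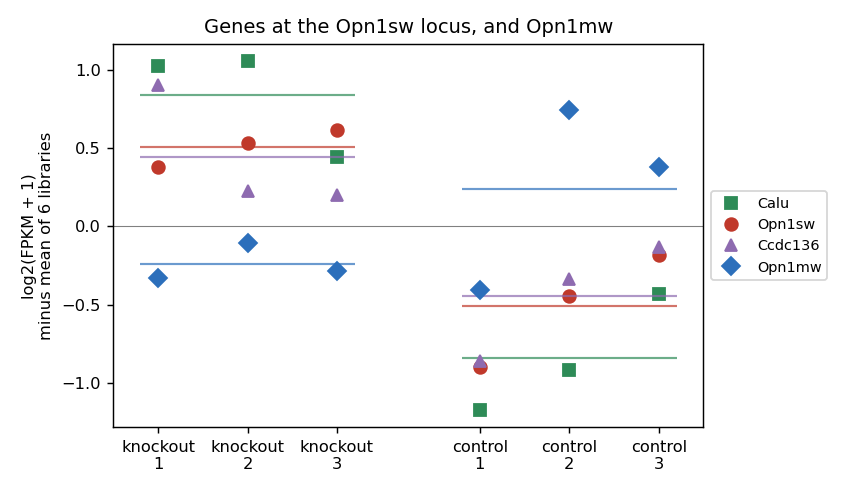
log2(FPKM + 1) of Calu, Opn1sw, Ccdc136 and Opn1mw in each library, minus the mean of that gene over the 6 libraries, with the knockout libraries on the left and the control libraries on the right; lines mark group means (n = 3 each). Calu, Opn1sw and Ccdc136 lie above 0 in all 3 knockout libraries and below 0 in all 3 control libraries, whereas Opn1mw is below 0 in control 1 as in the knockout libraries.

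The genes whose pattern over the 6 libraries was most like each opsin were named by the root mean square difference of centred log2(FPKM + 1) values, among the 2110 genes that averaged 10 FPKM or more. For Opn1sw they were Slc4a7 (0.156), Fabp7 (0.172), Ybx3 (0.175), Uri1 (0.219) and Lrrc1 (0.222), against a median of 0.556 over all 2110 genes. Slc4a7 encodes a sodium bicarbonate cotransporter, and Fabp7 a fatty-acid-binding protein that measured 72.4 ± 7.49 FPKM in knockout and 30.7 ± 7.86 FPKM in control. For Opn1mw they were Hspe1 (0.0987), Timm17a (0.105), Snrpb (0.112), Osgep (0.122) and Eif6 (0.129), against a median of 0.443. Hspe1, a mitochondrial chaperonin gene, measured 15.3 ± 1.03 FPKM in knockout and 21.3 ± 7.34 FPKM in control. Like Opn1mw, it had its lowest value in control 1 and its highest in control 2. With 6 libraries such likeness is a description.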

How the data were processed

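RNA was measured by poly(A) RNA-seq in 6 libraries of eGFP-positive cones sorted from dissociated mouse neural retina, 3 knockout and 3 control, grouped by the genotype in the labels. The authors deposited 1 table of FPKM for 9720 protein-coding genes, in which the lowest value is 0.1 FPKM and every gene exceeds 1 FPKM in at least 1 library. Per the submitters' processing notes, the build was mm10 and the tools were HTSeq, DESeq2, Cufflinks 2.2.1 and TopHat2 2.1.0. No source used here says which of them gave the FPKM, with what annotation or with what use of strand. Read totals are not given, so the depth is unknown.

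From these values log2(FPKM + 1) was computed, and the 8627 genes that averaged 1 FPKM or more were tested with limma 3.58.1 (R 4.3.3; lmFit, eBayes with trend; two-sided). The p-values were adjusted over all of them by Benjamini-Hochberg, with a threshold of 0.05. Log2 differences are on that scale, which understates those of low genes, whereas ratios of means are ratios of FPKM. The ratio, share and sum of the opsins were tested by two-sided exact permutation over libraries (scipy 1.17.1). The fit was also run on simulated data with known shifts, and the outcome of that run is not used here. Gene models came from GENCODE vM21 (GRCm38, of which mm10 is another name), and promoters from RefSeq (GRCm38.p6), where both opsins were matched.

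The opsins and all gene lists were chosen with earlier results of these data known. Named were the opsins, the genes beside Opn1sw, the listed opsins and opsin regulators, from each further list up to 3 tested members of smallest unadjusted p and the most abundant one (marker lists are given as sums), and the 5 genes most like each opsin; Stmn2, Cry1 and the gene models were named after their values were seen. One listed gene is not reported here. Alternatives were the pseudocount, the filter, the scaling, the variance trend, array weights, a replicate block and leaving out each library; settings for genes other than the opsins were added after the data were seen.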

Additional observations from a re-analysis of the deposited data

How the results depend on the processing

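The log2 difference of Opn1sw was positive under all 17 alternatives, at 0.56 (quantile normalization) to 1.18, and 0.82 to 1.18 with 1 library left out. Its adjusted p never passed (limma, 0.064 to 0.9996). That of Opn1mw was negative under all 17, at -0.80 to -0.23, which are also the limits with 1 library left out, with adjusted p of 0.32 to 0.9996 (limma). The log2 ratio difference was 0.97 under quantile normalization and 1.27 to 1.63 with 1 library left out, where the smallest two-sided exact p is 0.2. Once entered in the limma fit it was 1.495, with an adjusted p of 0.039. That is a different test, with a spread partly borrowed from genes far below the opsins in level, so it does not decide the question. The share difference was 15.9 points under quantile normalization and 20.4 to 26.4 points with 1 library left out. The log2 sum difference was 0.16 (without control 1) to 0.57 with 1 library left out. It was 0.18 under quantile, 0.44 under FPKM-sum and median-ratio and 0.56 under cone-gene scaling. Under each of these scalings the groups did not overlap, at a two-sided exact permutation p of 0.10, the smallest possible here. Groups lay apart in the higher direction for 6.82% of tested genes as shares of the FPKM sum and for 9.68% over the cone genes. Such a share was not counted under quantile or median-ratio scaling.

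The number of genes past the threshold was 9, and 6 to 13 with 1 library left out. With array weights it was 23 (11 higher and 12 lower), and the cause was not tested. Same-numbered libraries did not deviate together (correlations of -0.118, -0.0853 and -0.0336), so the numbers are not taken to pair them; with a replicate block Opn1sw was at 1.01 (adjusted p = 0.61), Opn1mw at -0.48 (adjusted p = 0.89, limma) and 6 genes passed, and the exact sign-flip test of the log2 ratio over 3 pairs gave p = 0.25, the smallest it allows. Of 2188 values of other named genes under these settings, 2183 moved by no more than 1 SD, and no gene past the threshold changed sign. The FPKM table limits precision through 3 libraries a group and an unknown depth.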
